A study of Mus musculus with 27 samples.

Results

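The transcription factor NRF2, encoded by Nfe2l2, and 9 of its classical target genes in antioxidant defence were followed through 3 kinds of primary mouse cell. The targets were Hmox1, Nqo1, Gclm, Gclc, Srxn1, Txnrd1, Slc7a11, Gsr and Osgin1. The 10 genes are given by name, with no threshold on measured values, and 10 of 10 were found among the 55487 gene identifiers of the deposited tables. They and the other lists below were chosen with earlier results of these data known. Counts of them beside the share of all genes are therefore descriptions only. The 27 RNA libraries came from microglia, from macrophages grown out of bone marrow (BMDM) and from hepatocytes. Each cell type received 10 µM of the plant and algal sterol saringosterol, 1 µM of a synthetic compound or an ethanol vehicle for 24 h, with 3 libraries in each of the 9 groups. The synthetic compound, referred to as GW, appears in the labels as GW3596, GW3964 or GW3965, the last being a known agonist of the liver X receptors (LXR), which sense oxidised sterols. Since saringosterol was given at 10 µM and GW at 1 µM, direct comparisons of the compounds are between unequal doses. Microglia had been shaken off mixed glial cultures, and BMDM had been differentiated with M-CSF for 6 days. Both were treated in serum-free DMEM/F12 with M-CSF, albumin and an insulin, transferrin and selenite supplement, whereas hepatocytes were treated in Williams' E medium without these, so that cell type and medium cannot be told apart where hepatocytes are set against macrophages or microglia. No strain, genotype, sex or age is given in the labels, nor whether libraries of 1 group are separate cultures or animals. P-values therefore measure only the spread between these libraries, which may be technical.

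NRF2 is made continuously and, in unstressed cells, is handed by the adaptor KEAP1 to a CUL3 ubiquitin ligase for degradation. Electrophiles and oxidants modify KEAP1, after which NRF2 accumulates, pairs with a small MAF protein and binds antioxidant response elements in the DNA near its target genes, where the repressor BACH1 can compete with it. Its targets import cystine, build and recycle glutathione, reduce thioredoxin and peroxiredoxins, detoxify quinones and degrade heme. Because the protein is regulated largely by its stability, the level of Nfe2l2 RNA measures only part of its activity.

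The antioxidant response element was searched for by its core, TGACNNNGC, on both strands of the RefSeq promoter windows (build GRCm38.p6, 250 bases before to 50 after each start of transcription), and no other motif was searched. Windows were listed for 7 of the 10 genes, Txnrd1 having 3 of the 9 windows, and 4 of the 9 held the core, against 12.4% of all 32851 windows of 300 bases. The 250 bases upstream of the start are shown for 3 genes with a match there, the factor's own gene and a gene each of glutathione synthesis and thioredoxin reduction, and for Nqo1, whose RNA changed most in microglia and whose window held no match. Capitals mark the core, which lay on the sense strand with its first base at -240 in Nfe2l2 (chr2:75704664-75704913, minus strand), and on the antisense strand at -134 in Gclm (chr3:122245307-122245556, plus strand) and at -92 in one of the windows of Txnrd1 (chr10:82858956-82859205, plus strand). The Nqo1 stretch is chr8:107403206-107403455 on the minus strand. In Srxn1 the core lay on the antisense strand 29 bases past the start. A match is only these letters in this window, and its absence says nothing about elements farther away.
Nfe2l2: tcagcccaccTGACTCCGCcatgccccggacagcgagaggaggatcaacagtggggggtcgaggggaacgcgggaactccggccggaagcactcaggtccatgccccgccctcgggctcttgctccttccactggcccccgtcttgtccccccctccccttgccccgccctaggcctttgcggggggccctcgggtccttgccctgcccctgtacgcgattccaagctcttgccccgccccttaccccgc
Gclm: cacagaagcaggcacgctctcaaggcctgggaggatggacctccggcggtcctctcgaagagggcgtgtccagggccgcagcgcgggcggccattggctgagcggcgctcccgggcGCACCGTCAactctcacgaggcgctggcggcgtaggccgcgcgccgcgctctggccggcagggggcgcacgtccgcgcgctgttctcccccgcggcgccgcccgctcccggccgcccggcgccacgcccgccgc
Txnrd1: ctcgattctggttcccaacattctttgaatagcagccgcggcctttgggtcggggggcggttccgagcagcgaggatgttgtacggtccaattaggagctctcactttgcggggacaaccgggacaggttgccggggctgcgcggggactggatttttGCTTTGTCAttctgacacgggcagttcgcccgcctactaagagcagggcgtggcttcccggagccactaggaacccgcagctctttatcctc
Nqo1: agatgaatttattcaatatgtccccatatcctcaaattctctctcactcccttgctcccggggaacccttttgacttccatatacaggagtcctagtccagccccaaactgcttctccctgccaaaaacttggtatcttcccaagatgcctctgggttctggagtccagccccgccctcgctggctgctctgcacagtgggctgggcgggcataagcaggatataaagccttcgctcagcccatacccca

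Libraries held 30295862 to 41040268 counts in genes, and a count of 0 allows up to 0.0731 to 0.099 CPM (counts scaled to library size), a floor that covers counting error only. All 10 genes lay far above it and passed the filter on low counts in every fit. Identity markers followed the labels in part. Macrophage markers (10 genes) summed to group means of 38116 to 42211 CPM in microglia, 24461 to 31289.7 CPM in BMDM and 354 to 361 CPM in hepatocytes, and hepatocyte markers (9 genes) to 9452 to 9681 CPM in hepatocytes and at most 1.58 CPM in any other library. In hepatocytes the macrophage sum was mostly Cd68, at group means of 346 to 355 CPM, with Lyz2 next at 3.14 to 4.65 CPM. Of the microglia markers, Tmem119 had 4.21 CPM and P2ry12 11.4 CPM in vehicle-treated microglia, and Siglech was at 0 in all 9 microglia libraries. The term microglia therefore follows the labels here. In RNA from whole cultures, fewer cells of a type and less RNA per cell cannot be told apart. Treatment comparisons below use CPM scaled by TMM within each cell type, and levels across cell types or between genes use the deposited TPM, which divides by transcript length. A gene was called at an edgeR quasi-likelihood p, adjusted over all genes tested (Benjamini-Hochberg), under 0.05.

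Levels under vehicle differed between the cell types gene by gene, without a common direction. In hepatocytes 3 of the 10 genes were higher and 5 lower than in the mean of the vehicle-treated macrophage types, where 76.3% of all 18979 genes were called (38.2% higher and 38.1% lower), so that 8 of 10 is near the background. The largest of these differences was in Osgin1, an oxidative stress-induced growth inhibitor (chr8:119434124-119446256), which had 1522, 1444 and 1497 TPM in hepatocytes, 30.9, 30.7 and 31.4 TPM in microglia and 26.9, 32.1 and 33.2 TPM in BMDM. Hepatocytes thus stood apart from both macrophage types, which overlapped, and the difference in CPM was 5.23 ± 0.09 on the log2 scale (SE; edgeR adjusted p = 1.2e-24). Hmox1, the heme oxygenase that opens heme and releases iron, carbon monoxide and biliverdin (chr8:75093621-75100589), was the reverse case, with 204, 189 and 200.3 TPM in hepatocytes, 1207, 1148 and 1200.0 TPM in microglia and 1064, 1289 and 1228 TPM in BMDM. Its difference between hepatocytes and the macrophage types was -2.95 ± 0.11 on the log2 scale (edgeR adjusted p = 8.1e-16). Srxn1, the sulfiredoxin that restores overoxidised peroxiredoxins, and Gsr, glutathione reductase, were higher in hepatocytes, by 0.57 ± 0.12 and 0.36 ± 0.06 on the log2 scale (edgeR adjusted p = 0.0003 and 1.5e-06). Nfe2l2 (-1.63 ± 0.04), Nqo1 (-1.33 ± 0.12), Slc7a11 (-1.23 ± 0.09) and Gclm (-0.89 ± 0.12) were lower in hepatocytes on the log2 scale, with edgeR adjusted p of at most 1.1e-06. These differences are from the mean of both macrophage types, and for Slc7a11 and Gclm 1 of the types did not stand apart from hepatocytes. Slc7a11 had at most 12.9 TPM in hepatocytes, against 36.0 to 46.6 TPM in microglia and an overlapping 10.7 to 13.1 TPM in BMDM. Gclm had 78.1 to 82.2 TPM in hepatocytes, against 80.1 to 89.2 TPM in microglia and 152 to 166 TPM in BMDM. Gclc and Txnrd1 were not called on CPM, although their hepatocyte libraries stood above both macrophage types by TPM. Gclc had 106 to 112 TPM in hepatocytes, against at most 101 TPM, and Txnrd1 252 to 269 TPM, against at most 242 TPM. Small differences between these cell types thus depend on the scale.

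**Figure D1:**
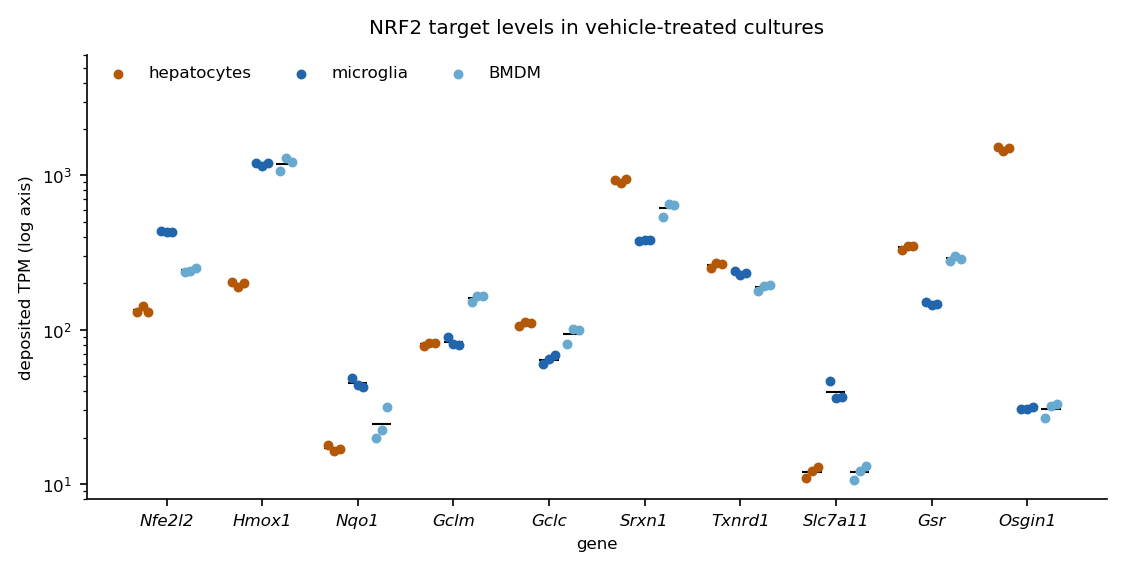
Deposited TPM (log axis) of NRF2 and its targets in each vehicle-treated library of hepatocytes, microglia and BMDM; points are libraries and bars their means (n = 3). Osgin1 stood near 1488 TPM in hepatocytes and near 31.0 TPM in microglia and 30.7 TPM in BMDM, and Hmox1 near 198 TPM in hepatocytes and near 1185 TPM in microglia and 1194 TPM in BMDM.

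Between vehicle-treated microglia and BMDM, 8 of the 10 genes were called, 4 being higher in microglia and 4 lower, where 46.5% of all 18979 genes were called (4662 genes higher and 4166 lower). Nfe2l2 (chr2:75675513-75704641) had 435, 432 and 429.6 TPM in microglia, against 238, 241 and 249.8 TPM in BMDM and 129.8, 143 and 131 TPM in hepatocytes, so the 3 cell types did not overlap. It was higher in microglia than in BMDM by 0.73 ± 0.04 on the log2 scale of CPM (SE; edgeR adjusted p = 2.5e-16). Slc7a11, the cystine importer (chr3:49892526-50443614), had 46.6, 36.0 and 36.7 TPM in microglia, against 10.7, 12.1 and 13.1 TPM in BMDM, a log2 difference in CPM of 1.63 ± 0.10 (edgeR adjusted p = 8.3e-13). Nqo1, a quinone reductase, was higher in microglia by 0.76 ± 0.13 (edgeR adjusted p = 8.5e-06). The genes of glutathione synthesis and recycling ran the other way: Gsr (-1.08 ± 0.07), Gclm (-1.06 ± 0.13) and Gclc (-0.65 ± 0.11) were lower in microglia on the log2 scale, as was Srxn1 (-0.79 ± 0.15), with edgeR adjusted p of at most 0.00014. Txnrd1, thioredoxin reductase, was higher in microglia by 0.21 ± 0.08 with an edgeR adjusted p of 0.046 that single libraries decided. That call was lost without vehicle replicate 1 (0.16, adjusted p = 0.2) or 2 (0.22, 0.072) of BMDM and without vehicle replicate 1 (0.19, 0.12), 2 (0.23, 0.066) or 3 (0.20, 0.093) of microglia. Hmox1 and Osgin1 were not called.

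In microglia, NRF2's own RNA and most of its targets fell with GW while Hmox1 rose, and fewer of the genes changed with saringosterol. With GW against vehicle, 9 of the 10 genes were called, 2 higher and 7 lower, where 28.7% of all 16065 genes were called (13.4% higher and 15.2% lower). The median log2 change of the 10 was -0.26, and that of all genes -0.01. With saringosterol against vehicle, 4 of 10 were called, 3 higher and 1 lower, where 10.8% of all genes were called (4.19% higher and 6.66% lower), and the medians were 0.03 and 0.00. Both comparisons share the same vehicle libraries.

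Nfe2l2 had 544, 536 and 548 CPM in microglia with saringosterol, 374, 369.9 and 369.9 CPM with GW and 549, 549.9 and 551 CPM with vehicle. The GW libraries stood well below the others, while the saringosterol libraries lay just under the vehicle libraries. The log2 change was -0.02 ± 0.03 with saringosterol (SE; edgeR adjusted p = 0.81, 95% interval -0.09 to 0.05) and -0.57 ± 0.03 with GW (adjusted p = 2.1e-14). Nqo1 (chr8:107388225-107403206), which reduces quinones by a route that avoids radical intermediates, had 19.5, 19.8 and 17.7 CPM with saringosterol, 10.2, 7.79 and 9.33 CPM with GW and 25.2, 22.9 and 22.3 CPM with vehicle. Its 3 groups did not overlap. It fell by 1.36 ± 0.09 on the log2 scale with GW (edgeR adjusted p = 8.4e-13), the largest change among the 10 genes in microglia. With saringosterol its log2 change was -0.30 ± 0.09 (edgeR adjusted p = 0.023). The saringosterol call was lost without saringosterol replicate 3 (-0.25, adjusted p = 0.1) and without vehicle replicate 1 (-0.25, 0.12) or 2 (-0.32, 0.054).

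**Figure D2:**
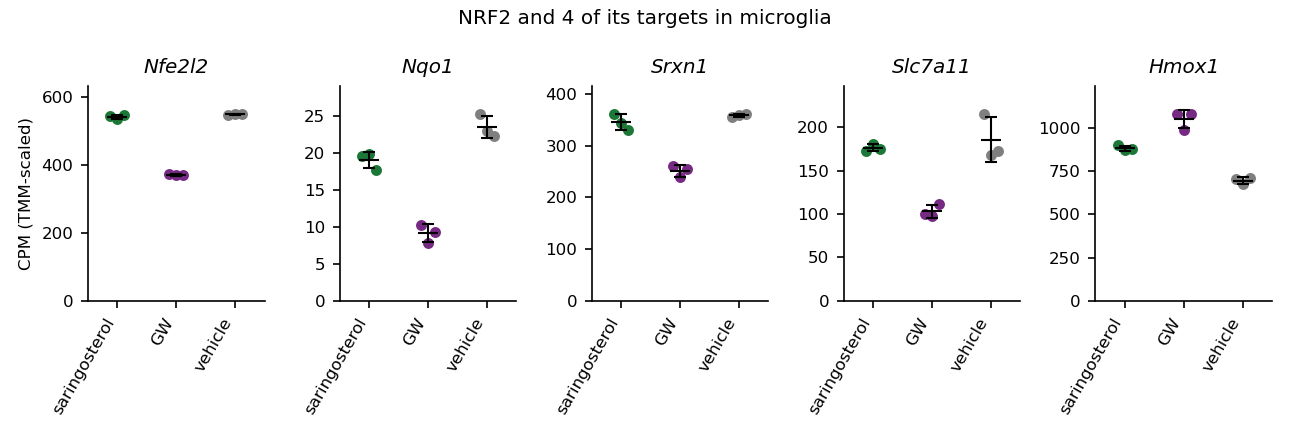
CPM (TMM-scaled, linear axes from 0) of Nfe2l2 and 4 of its targets in microglia with saringosterol, GW and vehicle; points are libraries, and bars give the mean and SD (n = 3). Nfe2l2, Nqo1, Srxn1 and Slc7a11 were lowest with GW, where Nqo1 averaged 9.10 CPM, against 23.4 CPM with vehicle, and Hmox1 was highest with GW, at a mean of 1049.6 CPM.

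Among the genes that supply and build glutathione, the cystine importer moved most in microglia. Slc7a11 had 173, 181 and 175 CPM with saringosterol, 99.8, 97.8 and 112 CPM with GW and 215, 168 and 173 CPM with vehicle. The GW libraries stood below all others, and the saringosterol libraries fell within the spread of vehicle. The log2 change was -0.85 ± 0.10 with GW (SE; edgeR adjusted p = 0.0002) and -0.07 ± 0.09 with saringosterol (adjusted p = 0.74, 95% interval -0.29 to 0.14). Gclm (chr3:122245557-122270732), the modifier subunit of glutamate-cysteine ligase, had 184, 166 and 186 CPM with saringosterol, 152, 144 and 149 CPM with GW and 187, 171 and 170.3 CPM with vehicle. It fell by 0.25 ± 0.05 on the log2 scale with GW (edgeR adjusted p = 0.00013), and its log2 change with saringosterol was 0.02 ± 0.05 (adjusted p = 0.85). Exons of Gclm overlap Gm17494 on the other strand and Gm6061, which held 3897 counts in all libraries together, and since no strand setting is given in the sources used here, some reads could belong to either gene. Gclc (chr9:77754535-77794485), the catalytic subunit of the same enzyme, had 94.2, 92.5 and 88.98 CPM with saringosterol, 86.8, 89.96 and 91.2 CPM with GW and 74.7, 81.4 and 87.00 CPM with vehicle. The subunits thus went opposite ways with GW, Gclc being higher by 0.14 ± 0.05 (edgeR adjusted p = 0.035) although its GW and vehicle libraries overlapped. With saringosterol Gclc was higher by 0.18 ± 0.05 (edgeR adjusted p = 0.015). Neither Gclc call was firm. With saringosterol it was lost without saringosterol replicate 1 (0.16, adjusted p = 0.076) or 2 (0.18, 0.057) and without vehicle replicate 1 (0.13, 0.13) or 2 (0.18, 0.055). With GW it was lost without GW replicate 2 (0.14, 0.098) or 3 (0.13, 0.13) and without vehicle replicate 1 (0.08, 0.26) or 2 (0.14, 0.082). Leaving out vehicle replicate 1 or 2 therefore left 2 genes called with saringosterol, Hmox1 and Txnrd1.

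Of the reductases in microglia, Srxn1 and Gsr fell with GW, and Txnrd1 rose with saringosterol. Srxn1 (chr2:152105516-152111376) had 361, 343 and 330.4 CPM with saringosterol, 261, 239 and 254 CPM with GW and 355, 359 and 361 CPM with vehicle. Its log2 change was -0.51 ± 0.04 with GW (SE; edgeR adjusted p = 1.2e-11) and -0.06 ± 0.04 with saringosterol (adjusted p = 0.45). Gsr (chr8:33652523-33698163), which returns oxidised glutathione to its reduced form, had 142, 137 and 142 CPM with saringosterol, 126, 122 and 122 CPM with GW and 139, 133 and 136 CPM with vehicle. It fell by 0.14 ± 0.04 on the log2 scale with GW (edgeR adjusted p = 0.0078), the smallest of the 7 decreases. Txnrd1 (chr10:82833951-82897712), the cytosolic selenoprotein that reduces thioredoxin, had 654, 649 and 644 CPM with saringosterol, 586, 556 and 592 CPM with GW and 569, 543 and 556 CPM with vehicle. The saringosterol libraries stood above both other groups, with a log2 change of 0.22 ± 0.04 (edgeR adjusted p = 2.9e-05). With GW the log2 change of Txnrd1 was 0.06 ± 0.04 (adjusted p = 0.26, 95% interval -0.02 to 0.13), and it was the only gene of the 10 not called.

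Hmox1 rose with both compounds in microglia. It had 900.0, 873 and 876 CPM with saringosterol, 1080.5, 989.9 and 1078 CPM with GW and 703, 675 and 710.4 CPM with vehicle, and the 3 groups did not overlap. The log2 change was 0.34 ± 0.04 with saringosterol (SE; edgeR adjusted p = 4.5e-08) and 0.59 ± 0.04 with GW (adjusted p = 5.3e-14), while Nfe2l2 in the same GW libraries was at 0.675 of its vehicle level. Osgin1 had 30.2, 30.9 and 29.3 CPM with saringosterol, 23.5, 22.8 and 22.6 CPM with GW and 27.5, 27.6 and 28.4 CPM with vehicle. It fell by 0.28 ± 0.07 on the log2 scale with GW (edgeR adjusted p = 0.0018), and its saringosterol libraries lay above vehicle without passing the test (0.12 ± 0.07, adjusted p = 0.31).

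Set directly against GW at these unequal doses, saringosterol left 8 of the 10 genes higher and 1, Hmox1, lower in microglia, where 25.5% of all genes were called (12.5% higher and 12.9% lower). The widest gaps were in Nqo1 (1.06 ± 0.10 on the log2 scale), Slc7a11 (0.77 ± 0.10), Nfe2l2 (0.55 ± 0.03) and Srxn1 (0.46 ± 0.04), with edgeR adjusted p of at most 0.00046. Osgin1, Gclm, Gsr and Txnrd1 were higher with saringosterol than with GW by 0.39 ± 0.07, 0.27 ± 0.05, 0.19 ± 0.04 and 0.17 ± 0.04 (edgeR adjusted p of at most 0.00073). Hmox1 was lower with saringosterol than with GW by a log2 difference of -0.25 ± 0.04 (adjusted p = 3.2e-06). Gclc was not called, at 0.04 ± 0.05 (95% interval -0.06 to 0.14). Astrocyte markers (7 genes, none at 0) summed to 26.3 to 31.0 CPM in the saringosterol libraries, 45.6 to 51.0 CPM in the GW libraries and 39.3 to 41.2 CPM in the vehicle libraries, and oligodendrocyte lineage markers (6 genes, none at 0) to 62.1 to 66.6 CPM with saringosterol, 77.3 to 80.5 CPM with GW and 69.8 to 72.7 CPM with vehicle. Interferon-stimulated genes, a list of 10 chosen after values were seen, summed to 1001 to 1022 CPM with saringosterol, 494 to 676 CPM with GW and 1715 to 1948 CPM with vehicle. In BMDM the oligodendrocyte lineage markers had group means of 69.7 CPM with saringosterol, 76.3 CPM with GW and 80.6 CPM with vehicle. Their sums were thus about as high in BMDM as in microglia, and a sum does not show which of the 6 genes carried it. The astrocyte markers had group means of 11.9 CPM with saringosterol, 21.4 CPM with GW and 20.4 CPM with vehicle in BMDM, also lowest with saringosterol. The part of these 3 lists in the results above was not tested.

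**Figure D3:**
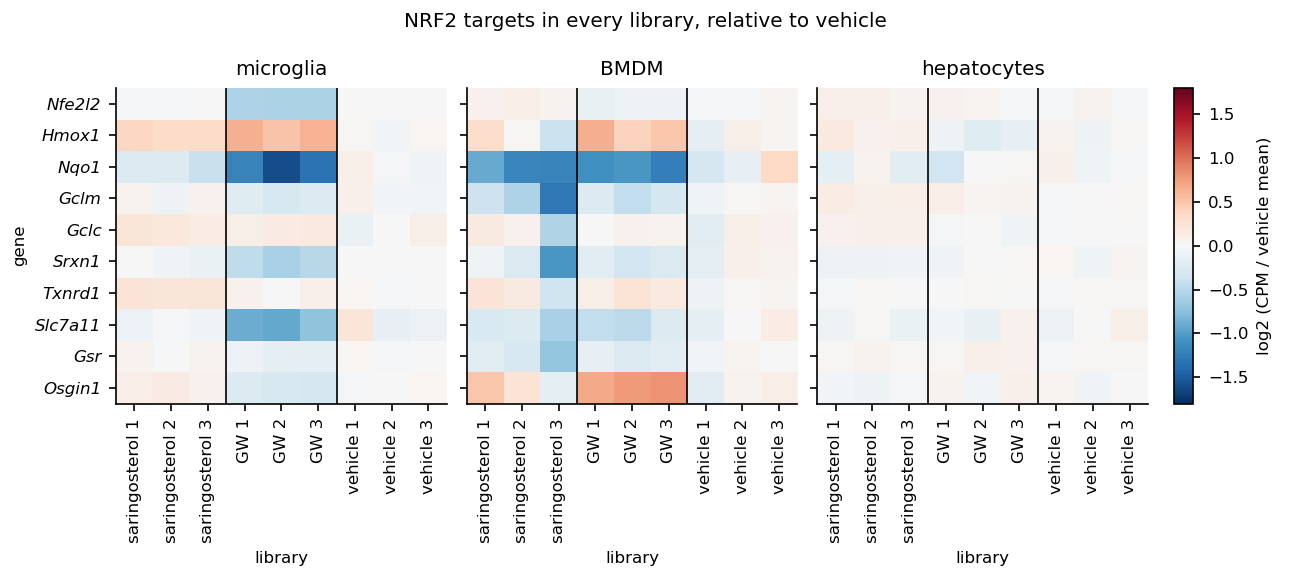
Log2 ratio of each library's CPM to the mean of the vehicle libraries of its cell type, for the 10 genes (rows) in all 27 libraries (columns, grouped as saringosterol, GW and vehicle within microglia, BMDM and hepatocytes). Red is higher and blue lower than vehicle; the blue columns of GW in microglia, the blue column of saringosterol replicate 3 in BMDM and the pale panel of hepatocytes stand out.

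In BMDM the decrease of Nqo1 was shared by both compounds, and fewer of the other genes passed the test. With saringosterol against vehicle, 2 of 10 genes were called, both lower, where 10.7% of all 15416 genes were called (5.53% higher and 5.12% lower). With GW against vehicle, 3 of 10 were called, 1 higher and 2 lower, against 10.4% of all genes (5.66% higher and 4.76% lower). The median log2 change of the 10 was -0.21 with saringosterol and -0.16 with GW, against -0.01 for all genes in both. When single libraries were left out, the calls over all genes ran between 846 and 1754 with saringosterol (1643 with all libraries) and between 896 and 2500 with GW (1606). Nqo1 had 7.22, 6.02 and 5.98 CPM with saringosterol, 6.34, 6.58 and 5.82 CPM with GW and 11.01, 12.3 and 17.5 CPM with vehicle. Every treated library lay below every vehicle library, and vehicle replicate 3 stood above the other vehicle libraries. The log2 change was -1.09 ± 0.16 with saringosterol (SE; edgeR adjusted p = 0.00017) and -1.12 ± 0.16 with GW (adjusted p = 8.8e-05). Slc7a11 had 48.95, 50.1 and 39.3 CPM with saringosterol, 43.3, 42.8 and 50.1 CPM with GW and 53.1, 59.4 and 64.9 CPM with vehicle. It changed by -0.36 ± 0.10 on the log2 scale with saringosterol (edgeR adjusted p = 0.031) and by -0.38 ± 0.10 with GW (adjusted p = 0.023). The saringosterol call of Slc7a11 was lost without saringosterol replicate 3 (-0.26, adjusted p = 0.051) and without vehicle replicate 2 (-0.35, 0.1) or 3 (-0.28, 0.1). Its GW call was lost without GW replicate 1 (-0.35, 0.091) or 2 (-0.34, 0.11) and without vehicle replicate 2 (-0.38, 0.079) or 3 (-0.30, 0.082).

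Osgin1 rose with GW in BMDM, against its decrease in microglia. It had 41.4, 34.8 and 25.9 CPM with saringosterol, 47.1, 49.7 and 51.4 CPM with GW and 25.6, 30.4 and 31.7 CPM with vehicle. The GW libraries stood above all others, and the saringosterol libraries spread across the vehicle range and beyond it. The log2 change was 0.76 ± 0.15 with GW (SE; edgeR adjusted p = 0.012; 0.74 and 0.052 without GW replicate 3) and 0.22 ± 0.15 with saringosterol (adjusted p = 0.42). Hmox1 had 924, 756 and 565 CPM with saringosterol, 1173, 986 and 1049.6 CPM with GW and 662, 798 and 766 CPM with vehicle. The GW libraries did not overlap the vehicle libraries, yet the log2 change of 0.53 ± 0.18 was not called by edgeR (adjusted p = 0.13), while DESeq2 called it (adjusted p = 0.033), and the saringosterol libraries lay on both sides of vehicle (0.01 ± 0.18, adjusted p = 0.98). Nfe2l2 itself had 346, 356 and 341 CPM with saringosterol, 298, 304 and 305 CPM with GW and 321, 324 and 338 CPM with vehicle, and the 3 groups did not overlap. Neither compound's change of Nfe2l2 was called (0.08 ± 0.05 with saringosterol, adjusted p = 0.31, and -0.12 ± 0.05 with GW, adjusted p = 0.16). Between the compounds, Nfe2l2 was higher with saringosterol than with GW by 0.20 ± 0.05 (edgeR adjusted p = 0.014), the 1 call of 10 in that comparison, where 9.33% of all genes were called (4.57% higher and 4.75% lower). That call was lost without GW replicate 1 (0.19, adjusted p = 0.055) or saringosterol replicate 2 (0.18, 0.069), and without saringosterol replicate 1 Hmox1 (-0.70, 0.02) and Osgin1 (-0.70, 0.0012) were called lower than with GW as well.

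Gclm, Gsr, Srxn1, Txnrd1 and Gclc were not called in BMDM with either compound by edgeR, where Gclm and Gsr had an unadjusted p under 0.05 with saringosterol. Gclm had 278, 244 and 148 CPM with saringosterol, 304, 266 and 289 CPM with GW and 341, 367 and 373 CPM with vehicle. Every treated library lay below vehicle, but neither the log2 change with saringosterol (-0.69 ± 0.22; SE) nor that with GW (-0.33 ± 0.22) was called (edgeR adjusted p = 0.11 and 0.43). Gsr had 248, 231 and 173 CPM with saringosterol, 256, 236 and 249 CPM with GW and 273, 293 and 283 CPM with vehicle, again with every treated library below vehicle (-0.38 ± 0.11 with saringosterol, adjusted p = 0.061, and -0.20 ± 0.11 with GW, adjusted p = 0.32). DESeq2 called the saringosterol change of both genes (adjusted p = 0.012 for Gclm and 0.0021 for Gsr). Srxn1 had 582, 509 and 297 CPM with saringosterol, 533, 481 and 512 CPM with GW and 542, 653 and 642 CPM with vehicle. Txnrd1 had 559, 529 and 372 CPM with saringosterol, 509.5, 561 and 538 CPM with GW and 448, 484 and 493 CPM with vehicle. Gclc had 141, 133 and 86.5 CPM with saringosterol, 125, 132 and 131 CPM with GW and 109, 135 and 133 CPM with vehicle. For these 3 genes the saringosterol libraries fell on both sides of one or more vehicle libraries, and no change was called (edgeR adjusted p between 0.37 and 0.93). Endothelial markers (6 genes) summed to 99.0 to 120.2 CPM with saringosterol, 144 to 146 CPM with GW and 84.4 to 94.6 CPM with vehicle in BMDM, with Tek at 0 in the saringosterol and vehicle groups and Cdh5 at 0 in the vehicle group, and their part in these results was not tested.

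Replicate 3 of the saringosterol-treated BMDM stood apart. It was below replicates 1 and 2 for 10 of the 10 genes, where this held for 36.6% of all 15416 genes, and below 0.8 of the lower of them for 7 of 10, against 9.09% of all genes. Relative to the mean of replicates 1 and 2, it held 0.544 of the Srxn1 CPM, 0.566 of Gclm, 0.632 of Gclc, 0.672 of Hmox1, 0.681 of Osgin1, 0.684 of Txnrd1 and 0.724 of Gsr. Slc7a11 (0.794), Nqo1 (0.904) and Nfe2l2 (0.972) were closer to replicates 1 and 2. The same library was below both others for 8 of 8 genes of heme and iron handling, 13 of 17 other glutathione and thioredoxin genes and 5 of 6 NADPH-supplying genes, but for 2 of 14 genes of the amino acid response. The interferon-stimulated genes summed to 782 CPM in it, against 112 and 120.0 CPM in replicates 1 and 2, 132 to 178 CPM with GW and 284 to 449.9 CPM with vehicle. The part of the interferon genes in these values was not tested.

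Without that library, more of the genes were called in BMDM. Each library was left out in turn, but this one was singled out by the values of these same genes. Leaving it out lowers the spread by choice, so counts and p-values without it, here and below, are descriptions only and not preferred to those with all libraries. With saringosterol 5 of 10 were called, 2 higher and 3 lower, where 10.5% of all genes were called. These were Nqo1 (-1.05 ± 0.17 on the log2 scale, edgeR adjusted p = 0.00012), Gclm (-0.47 ± 0.07, 1.2e-05), Gsr (-0.25 ± 0.06, 0.0056), Osgin1 (0.38 ± 0.09, 0.0071) and Txnrd1 (0.19 ± 0.06, 0.035). With GW 8 of 10 were called, 3 higher and 5 lower, against 15.8% of all genes. The GW libraries were the same as before and the spread shared by the groups of the fit was smaller, the SE of Hmox1 being 0.09 without the library and 0.18 with it. The GW calls were then Osgin1 (0.76 ± 0.08, edgeR adjusted p = 1.6e-07), Hmox1 (0.53 ± 0.09, 0.0032) and Txnrd1 (0.18 ± 0.05, 0.022), which were higher, and Nqo1 (-1.12 ± 0.15, 5.2e-06), Gclm (-0.33 ± 0.06, 0.0002), Slc7a11 (-0.38 ± 0.08, 0.0008), Srxn1 (-0.27 ± 0.07, 0.0096) and Gsr (-0.19 ± 0.05, 0.01), which were lower. The saringosterol against GW comparison then had 2 of 10 calls, Nfe2l2 (0.21, 0.012) and Osgin1 (-0.38, 0.0072), against 8.86% of all genes. Without saringosterol replicate 1 Gsr was called lower with saringosterol (-0.48, adjusted p = 0.0074) and Hmox1 higher with GW (0.54, 0.031). Without vehicle replicate 2 or 3, 1 gene, Nqo1, was called with saringosterol.

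**Figure D4:**
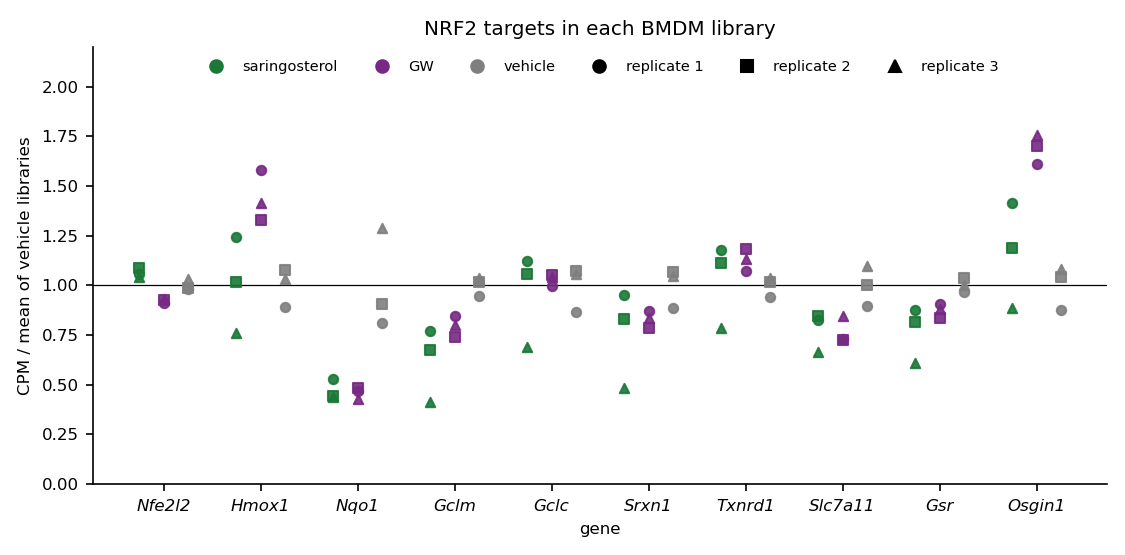
CPM of each gene in every BMDM library divided by the mean of the 3 vehicle libraries (linear axis from 0); colours mark saringosterol, GW and vehicle, and symbols the replicate. Saringosterol replicate 3 (green triangles) lay below the other saringosterol libraries for all 10 genes, at 0.410 of vehicle for Gclm and 0.485 for Srxn1, and GW libraries lay above vehicle for Osgin1 and Hmox1.

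In hepatocytes none of the 10 genes was called with either compound by edgeR or by DESeq2. For saringosterol 3 of 10 had an unadjusted edgeR p under 0.05 and for GW 1, where 1.91% of all 16098 genes were called with saringosterol (0.888% higher and 1.02% lower) and 1.11% with GW (0.721% higher and 0.385% lower), so a count of 0 is near the background. When single libraries were left out, the calls over all genes ran between 86 and 803 with saringosterol (307 with all libraries) and between 125 and 220 with GW (178), and 0 of the 10 genes were called in any of these runs. The same GW libraries had 5 of 8 listed LXR targets called higher, among them the cholesterol exporter Abca1 (1.92 ± 0.07 on the log2 scale; SE, edgeR adjusted p = 1.7e-14). The saringosterol libraries had 0 of 8 called, and 4 of 8 had an unadjusted edgeR p under 0.05. In microglia and in BMDM 8 of 8 were called higher with saringosterol, against 10.8% and 10.7% of all genes called. With GW 8 of 8 were higher in microglia (28.7%) and 7 of 8 in BMDM (10.4%). Osgin1, one of the most abundant of the 10 in hepatocytes, had 1373, 1327 and 1393 CPM there with saringosterol, 1487, 1369 and 1513 CPM with GW and 1474, 1358 and 1427 CPM with vehicle, and all groups overlapped. Nqo1 had 8.47, 9.92 and 8.19 CPM with saringosterol, 7.46, 9.46 and 9.58 CPM with GW and 10.1, 8.97 and 9.28 CPM with vehicle. Its log2 change with GW was -0.10 ± 0.12, with a 95% interval of -0.35 to 0.15 that does not reach the decrease seen in microglia or BMDM. Nfe2l2 had 194, 195 and 190.5 CPM with saringosterol, 193, 188 and 180.1 CPM with GW and 178, 191 and 178 CPM with vehicle, with overlapping groups.

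Hmox1 was the 1 gene of 10 that separated the compounds in hepatocytes, where 1.96% of all genes were called (0.714% higher and 1.25% lower). It had 139, 129.9 and 132 CPM with saringosterol, 116, 106 and 111 CPM with GW and 129.5, 116 and 125 CPM with vehicle. The saringosterol libraries stood above and the GW libraries at or below the lowest vehicle library. Hmox1 was higher with saringosterol than with GW by 0.27 ± 0.05 on the log2 scale (SE; edgeR adjusted p = 0.0022), though neither compound's own change was called (0.11 ± 0.05 with saringosterol, adjusted p = 0.28, and -0.16 ± 0.05 with GW, adjusted p = 0.22). No change of the remaining genes was called. Group means with saringosterol, GW and vehicle were 196, 191 and 181 CPM for Gclm, 156, 143 and 147 CPM for Gclc, and 875, 925 and 929.7 CPM for Srxn1. They were 663, 665 and 663 CPM for Txnrd1, 57.0, 58.2 and 59.5 CPM for Slc7a11, and 344, 352 and 336 CPM for Gsr. Across these 6 genes the log2 changes against vehicle lay between -0.09 and 0.11.

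**Figure D5:**
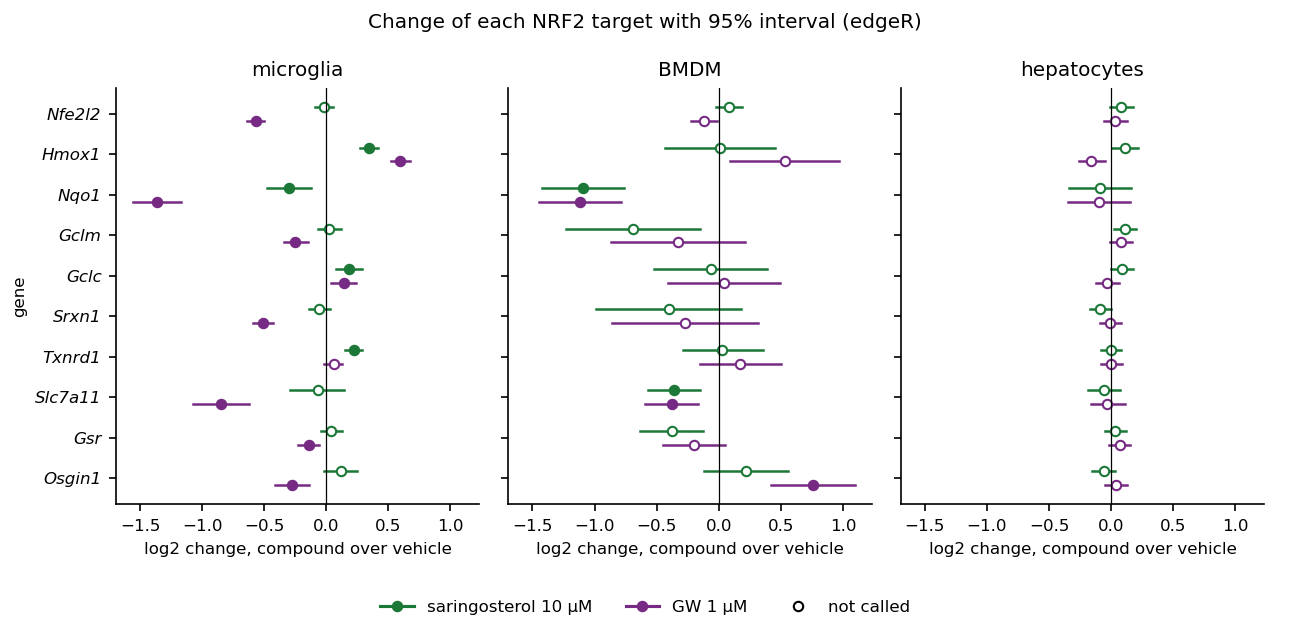
Log2 change of each gene with saringosterol (10 µM) and GW (1 µM) over vehicle in microglia, BMDM and hepatocytes, with 95% intervals from edgeR; filled points passed the test and open points did not. In microglia 7 GW points lie filled on the lower side, in BMDM the intervals are wider, and in hepatocytes no point is filled.

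The responses themselves differed between cell types for some of the genes, as tested by interaction terms in 1 fit of all 27 libraries. For GW, 3 of 10 genes differed between microglia and BMDM, where 9.71% of all genes did (4.43% higher and 5.28% lower in microglia), namely Osgin1 (-1.04 ± 0.15 on the log2 scale; SE, edgeR adjusted p = 5.3e-05), Slc7a11 (-0.47 ± 0.14, 0.032) and Nfe2l2 (-0.46 ± 0.06, 1.7e-06). Response means the signed log2 change, so a negative value is a lower log2 change in microglia, which can be a stronger decrease. The Osgin1 change was a decrease in microglia and an increase in BMDM. The Slc7a11 difference was lost without GW replicate 3 (-0.39, adjusted p = 0.099) or vehicle replicate 1 (-0.39, 0.1) or 2 (-0.47, 0.061) of BMDM, and without GW replicate 1 (-0.45, 0.081) or 2 (-0.44, 0.079) or vehicle replicate 1 (-0.35, 0.085) of microglia. The Nqo1 decrease with GW was not shown to differ between microglia and BMDM (-0.25 ± 0.19, adjusted p = 0.5, 95% interval -0.64 to 0.14). Against hepatocytes, 4 of 10 GW responses differed in microglia (8.69% of all genes, 5.05% higher and 3.64% lower) and 3 of 10 in BMDM (4.74%, 3.14% higher and 1.60% lower). Nqo1 fell further than in hepatocytes both in microglia (-1.24 ± 0.19, edgeR adjusted p = 2.1e-05) and in BMDM (-1.00 ± 0.20, 0.0014). The response of Hmox1 was higher than in hepatocytes in microglia (0.77 ± 0.16, 0.0034) and in BMDM (0.71 ± 0.16, 0.013). Nfe2l2 (-0.58 ± 0.06, edgeR adjusted p = 6.7e-09) and Slc7a11 (-0.80 ± 0.14, 0.00035) differed for microglia and Osgin1 (0.75 ± 0.14, 0.0019) for BMDM.

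For saringosterol, 2 of 10 responses differed between microglia and BMDM, where 2.01% of all genes did (0.769% higher and 1.24% lower). Between microglia and hepatocytes 0 of 10 differed by edgeR or DESeq2, against 1.18% of all genes (0.906% higher and 0.274% lower), and 1 of 10, Txnrd1, had an unadjusted edgeR p under 0.05. Between BMDM and hepatocytes 3 of 10 differed, against 10.1% of all genes (6.98% higher and 3.13% lower). Between microglia and BMDM the genes were Nqo1 (0.78 ± 0.19 on the log2 scale, SE, edgeR adjusted p = 0.022) and Gsr (0.42 ± 0.10, 0.017). In the fits of each cell type, Nqo1 fell less in microglia (-0.30) than in BMDM (-1.09). Gsr changed by 0.04 in microglia and -0.38 in BMDM, neither being called. The Nqo1 difference was lost without vehicle replicate 3 of BMDM (0.55, adjusted p = 0.065) and without saringosterol replicate 2 (0.75, 0.054) or vehicle replicate 2 (0.76, 0.051) or 3 (0.75, 0.069) of microglia. That of Gsr was lost without vehicle replicate 2 of BMDM (0.40, 0.056) and without saringosterol replicate 3 (0.42, 0.051) or vehicle replicate 2 (0.40, 0.055) of microglia. Gclm, not called with all libraries (0.71 ± 0.19, adjusted p = 0.058), was called without saringosterol replicate 1 (0.89, 0.0048), 2 (0.78, 0.049) or 3 (0.49, 0.00035) of BMDM, and Hmox1 without replicate 1 (0.50, 0.027). Between BMDM and hepatocytes, Nqo1 (-0.96 ± 0.20, edgeR adjusted p = 0.0017), Gclm (-0.76 ± 0.19, 0.014) and Gsr (-0.37 ± 0.10, 0.012) had the lower log2 change in BMDM, where the mean of each was below vehicle. Without saringosterol replicate 3 of BMDM, Osgin1 (0.48, 0.00081) and Txnrd1 (0.24, 0.022) were called too, making 5 of 10, against 8.86% of all genes, and between microglia and BMDM the calls were Nqo1 (0.74, 0.043), Gclm and Gsr (0.29, 0.015), against 1.68%.

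Over the 9 groups, the order of the levels followed the cell type without mixing for Nfe2l2, Gclc, Srxn1 and Gsr, and groups of different cell types were mixed in the order of the other 6 genes. Nfe2l2 was highest in vehicle-treated microglia (432 ± 2.88 TPM; SD, n = 3) and lowest in vehicle-treated hepatocytes (135 ± 7.30 TPM), and the 9 groups fell into microglia, then BMDM, then hepatocytes. Of its 8 pairs of neighbours in that order 4 did not overlap, and the overlapping pairs were microglia with saringosterol and with vehicle, GW-treated microglia and saringosterol-treated BMDM, and the pairs of hepatocyte groups. Srxn1 and Gsr had the reverse order of cell types, the highest groups being vehicle-treated hepatocytes for Srxn1 (924 ± 33.8 TPM) and GW-treated hepatocytes for Gsr (356 ± 8.18 TPM), and the lowest GW-treated microglia for both (254 ± 9.55 and 127 ± 1.03 TPM). For Hmox1, GW-treated BMDM were highest (1746 ± 109 TPM) and overlapped GW-treated microglia, and GW-treated hepatocytes were lowest (177 ± 7.47 TPM). Nqo1 ran between 45.0 ± 3.37 TPM in vehicle-treated microglia and 11.5 ± 0.829 TPM in GW-treated BMDM, and Slc7a11 between 39.8 ± 5.90 and 9.34 ± 0.901 TPM in the same groups. Osgin1 ran between 1520.0 ± 79.7 TPM in GW-treated hepatocytes and 24.5 ± 0.226 TPM in GW-treated microglia. The ranges of Gclc (116 ± 3.50 TPM in saringosterol-treated hepatocytes to 64.1 ± 4.34 TPM in vehicle-treated microglia), Gclm (161 ± 7.75 TPM in vehicle-treated BMDM to 67.1 ± 1.57 TPM in GW-treated microglia) and Txnrd1 (275 ± 2.98 TPM in saringosterol-treated microglia to 189 ± 9.45 TPM in vehicle-treated BMDM) were narrower, and 5 to 6 of their 8 pairs of neighbours overlapped.

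Of 9 regulators and partners of NRF2, 4 were called with saringosterol in microglia, 1 higher and 3 lower, where 10.8% of all genes were called. They included the small MAF gene Maff (0.71 ± 0.19 on the log2 scale; SE, edgeR adjusted p = 0.011), Keap1 (-0.31 ± 0.05, 4.3e-05) and the NRF2 relative Nfe2l1 (-0.27 ± 0.04, 7.9e-06). With GW in microglia 3 of 9 were called, 1 higher and 2 lower, near the 28.7% of all genes, namely Mafg (0.28 ± 0.05, edgeR adjusted p = 0.00017), Keap1 (-0.25 ± 0.05, 0.00019) and Sqstm1 (-0.73 ± 0.03, 5.7e-17), whose product, the autophagy receptor p62, binds KEAP1. In BMDM 1 of 9 was called with each compound, near the 10.7% of all genes with saringosterol and 10.4% with GW, namely Mafk with saringosterol (0.35 ± 0.06, adjusted p = 0.0016) and Sqstm1 with GW, which was higher there (0.22 ± 0.07, 0.043). Without saringosterol replicate 3 of BMDM, 2 of 9 were called higher with each compound, against 10.5% of all genes with saringosterol and 15.8% with GW. In hepatocytes 0 of 9 were called with either compound, which is near the 1.91% and 1.11% of all genes, and the median log2 changes were -0.07 with saringosterol and -0.02 with GW. Heme and iron genes were called in 2 of 8 cases with saringosterol in microglia, the iron exporter Slc40a1 being higher (0.31 ± 0.04, edgeR adjusted p = 7.5e-07) and the ferritin heavy chain Fth1 lower (-0.11 ± 0.03, 0.011), and in 4 of 8 with GW, 3 higher and 1 lower, with Slc40a1 again higher (0.25 ± 0.04, 4.7e-06). In BMDM 0 of 8 were called with saringosterol, where 2 had an unadjusted edgeR p under 0.05, and 2 with GW, Fech, which inserts iron into heme, being higher (0.19 ± 0.06, edgeR adjusted p = 0.047) and Fth1 lower (-0.30 ± 0.07, 0.01). Leaving out saringosterol replicate 3 of BMDM gave 1 higher and 1 lower with saringosterol, and 2 higher and 3 lower with GW. The shares of all genes were again 10.5% and 15.8%. In hepatocytes 2 of 8 were called with saringosterol, Slc40a1 being higher (0.26 ± 0.05, edgeR adjusted p = 0.0025) and the ferritin light chain Ftl1 lower (-0.20 ± 0.05, 0.018), and 0 with GW.

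Other genes of the same defence are set here against the shares of all genes called. These were 10.8% with saringosterol and 28.7% with GW in microglia, 10.7% and 10.4% in BMDM and 1.91% and 1.11% in hepatocytes. Without saringosterol replicate 3 of BMDM, the BMDM shares were 10.5% with saringosterol and 15.8% with GW. Of 18 other glutathione and thioredoxin genes tested in microglia, 6 were higher and 5 lower with GW and 1 higher and 2 lower with saringosterol, and of 17 tested in BMDM, 2 were lower with GW and 3 with saringosterol (without saringosterol replicate 3 of BMDM, 1 higher and 2 lower with GW, and 4 lower with saringosterol). The counts with saringosterol in microglia and those in BMDM with all libraries are near these shares. The abundant peroxiredoxin Prdx1 was lower with GW in microglia, at a mean of 6115 CPM, against 8912 CPM with vehicle (-0.54 ± 0.03 on the log2 scale; SE, edgeR adjusted p = 2.3e-14), and in BMDM, at 6928 CPM, against 11050.0 CPM (-0.67 ± 0.10, 0.00056). With saringosterol Prdx1 changed by -0.57 ± 0.10 in BMDM (edgeR adjusted p = 0.0023) and by -0.10 ± 0.03 in microglia (0.035). Of the genes that supply NADPH, which these reductases use, 4 of 6 were higher with GW in microglia and none lower, including Idh1 (1.07 ± 0.04, edgeR adjusted p = 6.6e-20), Me1 (0.77 ± 0.08, 3.1e-09) and Tkt (0.37 ± 0.04, 4.6e-09), and 2 of 6 were higher in BMDM. The median log2 change of the 6 in microglia was 0.31, against -0.01 for all genes. With saringosterol in microglia 2 of 6 were called, Idh1 being higher (0.29 ± 0.04, edgeR adjusted p = 1.4e-06) and Tkt lower (-0.12 ± 0.04, 0.036). With saringosterol in BMDM, Tkt (-0.26 ± 0.06, 0.0059) and Taldo1 (-0.37 ± 0.10, 0.046) were lower. Without saringosterol replicate 3, 1 of the 6 was higher and 3 lower with saringosterol in BMDM, and 4 were higher with GW. In hepatocytes 1 of 6 was called with each compound, Tkt being lower with saringosterol (-0.20 ± 0.05, edgeR adjusted p = 0.042) and Idh1 higher with GW (0.21 ± 0.04, 0.0076). Among 10 other detoxification enzymes tested in microglia, Ephx1, the microsomal epoxide hydrolase, was higher with both compounds (0.28 ± 0.04 with saringosterol, adjusted p = 1.7e-05, and 0.77 ± 0.04 with GW, 3.6e-15). With saringosterol Ephx1 was the 1 gene of 10 called, near the share of all genes. With GW 2 of the 10 were higher and 3 lower, the lower ones including Akr1b8 (-0.37 ± 0.10, 0.0054) and Ugdh (-0.29 ± 0.05, 1.3e-05). In BMDM 2 of 9 were lower with saringosterol and 2 with GW, among them Ptgr1 with both (-0.44 ± 0.08, edgeR adjusted p = 0.0033, and -0.38 ± 0.08, 0.0078). Once saringosterol replicate 3 of BMDM was left out, 1 was lower with saringosterol, and 1 was higher and 4 lower with GW. In hepatocytes, 2 of 18 glutathione genes were higher with GW, Gstm3 (0.48 ± 0.12, 0.047) and Gstm1 (0.19 ± 0.05, 0.026), and 0 of 18 were called with saringosterol.

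Slc7a11 is also a target of ATF4, the factor of the amino acid response, and other genes of that response were therefore followed beside it. In microglia 7 of 15 tested genes of the list were lower with saringosterol (10.8% of all genes called) and 7 lower and 1 higher with GW (28.7%), among them the ATF4-induced pseudokinase gene Trib3 (-0.55 ± 0.07 on the log2 scale with saringosterol; SE, edgeR adjusted p = 1.2e-06; -1.12 ± 0.07 with GW, 1.8e-13). In BMDM, where Slc7a11 was lower with both compounds, 6 of 14 genes of the list were higher with saringosterol (10.7% of all genes called), including the serine synthesis enzyme Phgdh (1.98 ± 0.32, edgeR adjusted p = 0.0032), the asparagine synthetase Asns (1.11 ± 0.21, 0.019) and Trib3 (0.87 ± 0.20, 0.008). Without saringosterol replicate 3, 8 of 14 were higher with saringosterol and 0 lower, against 10.5% of all genes. With GW in BMDM, where 10.4% of all genes were called, 1 of 14 was higher and 1 lower. These were Atf4 itself (0.35 ± 0.07, edgeR adjusted p = 0.0026) and Psat1 (-0.43 ± 0.09, 0.0051). Without saringosterol replicate 3, 6 were higher and 1 lower with GW, against 15.8% of all genes. In hepatocytes Slc7a11 kept to 54.2 to 63.8 CPM in all 9 libraries. With saringosterol 2 of 15 genes of the list were called there, against 1.91% of all genes, Atf3 being higher (0.21 ± 0.04, edgeR adjusted p = 0.0092) and Ddit4 lower (-0.31 ± 0.07, 0.018). With GW 2 of 15 were called, against 1.11%, Ddit3 (0.35 ± 0.07, 0.0044) and Cth (0.33 ± 0.06, 0.00081) both being higher.

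Across the 27 libraries, with each gene's log2 CPM centred on the mean of its cell type, the correlations between pairs of members (Pearson's r) lay between -0.59 and 0.98. The closest pair was Gclm and Gsr (Pearson's r = 0.98), followed by Srxn1 and Gsr (0.90) and Nqo1 and Slc7a11 (0.88), while Srxn1 also went with Slc7a11 (0.78), and Nfe2l2 went with Slc7a11 (0.80) and Nqo1 (0.68). Gclc went with Txnrd1 (0.83), and Hmox1 ran against Nfe2l2 (-0.59) and Nqo1 (-0.53). Among 8202 other genes with at least 5 CPM on average, those most like each member were Rcan1 (0.96) and Dnmt3a (0.94) for Nfe2l2, Akr1a1 (0.93) and Myrf (0.92) for Nqo1, and Prdx6 for both Gclm (0.91) and Gsr (0.90). Hmox1 was closest to Ephx1 (0.89), Srxn1 to Esd (0.89), Slc7a11 to F10 and Grpel1 (0.89 each), Osgin1 to Hspa1a (0.88), and Txnrd1 and Gclc both to Gabarapl1 (0.86 and 0.76). These values describe 27 libraries that share treatments, vehicle libraries and BMDM saringosterol replicate 3, and they carry no test.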

How the data were processed

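Per the labels' protocols, cDNA was primed with oligo-dT (SMARTer Ultra Low). The submitters' processing notes name bcl2fastq, STAR 2.5.1a, Subread's featureCounts 1.4.6-p5 and the build GRCm38. No annotation release, strand setting or rule for multi-mapping reads is given in the sources used here. The deposited tables hold unnormalised counts of reads and, made by the authors, TPM. Repeated lines of 168 identifiers, among 55774 lines, were used once, and the series table and the tables of single libraries differed in 0 counts.

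The members and lists were chosen with earlier results of these data known. Counts of each cell type (9 libraries) were fitted with edgeR 4.0.16 in R 4.3.3 (filterByExpr, TMM, robust quasi-likelihood F test, no covariate), and comparisons across cell types in 1 fit of all 27 libraries (18979 genes). P-values were adjusted over all genes tested (Benjamini-Hochberg), and SE is the log2 change divided by the root of F. The fits' common biological variation (BCV) was 0.113 for BMDM, against 0.0666 for microglia and 0.0654 for hepatocytes. CPM used TMM-scaled library sizes. All 10 members are named. From each other list, up to 3 called genes with the largest absolute log2 change per comparison with vehicle could be named, and for each member the 2 genes with the highest correlation. The symbol Ddit3 stood on several identifiers, and the one with the most counts was used. The alternatives were DESeq2 1.42.0, its size factors in edgeR, no filter on low counts, the replicate number as a block, and each library left out in turn. The code was tested on simulated counts. Of the microglia markers 1 is not reported here.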

Additional observations from a re-analysis of the deposited data

Results flagged for a closer look

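Differences in response between cell types, tested as interaction terms in edgeR's fit of all 27 libraries, are listed because the same compound gave unequal log2 changes. Each value is the response in the cell type named first minus that in the other, on the log2 scale. For saringosterol, the response of Nqo1 in microglia minus that in BMDM was 0.78 (adjusted p = 0.022) and that of Gsr 0.42 (0.017). Both calls were lost when single libraries were left out, with adjusted p of 0.051 to 0.069. For saringosterol in BMDM minus hepatocytes, the differences were -0.96 for Nqo1 (0.0017), -0.76 for Gclm (0.014) and -0.37 for Gsr (0.012). Without saringosterol replicate 3 of BMDM they were -0.91 (0.0039), -0.54 (2.9e-05) and -0.23 (0.021). For GW in microglia minus BMDM, they were -1.04 for Osgin1 (adjusted p = 5.3e-05), -0.46 for Nfe2l2 (1.7e-06) and -0.47 for Slc7a11 (0.032), the last lost in 6 of the runs without 1 library. For GW in microglia minus hepatocytes, they were -0.58 for Nfe2l2 (6.7e-09), 0.77 for Hmox1 (0.0034), -1.24 for Nqo1 (2.1e-05) and -0.80 for Slc7a11 (0.00035). For GW in BMDM minus hepatocytes, they were 0.71 for Hmox1 (0.013), -1.00 for Nqo1 (0.0014) and 0.75 for Osgin1 (0.0019).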

How the results depend on the processing

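Counts of the 10 genes called changed mainly in BMDM. With DESeq2, 4 were called for saringosterol against vehicle (2 with edgeR), where it called 2056 of all 15416 genes, and 3 for saringosterol against GW (1 with edgeR), where it called 1766. Without the filter on low counts, 3 were called for saringosterol against GW, where 1776 of all 32399 genes were called. Replicate numbers gave no clear pairing in microglia or BMDM. Correlations of same-numbered libraries lay between -0.28 and 0.133 in microglia and -0.143 and 0.109 in BMDM, over 0.1 in 1 of 9 pairs each. In hepatocytes they lay between -0.0094 and 0.243, over 0.1 in 2 of 9 pairs. Differently numbered hepatocyte libraries lay between -0.165 and 0.0691. A weak pairing in hepatocytes can therefore not be excluded, and the main fits used no block. With the replicate block, 1 gene was called in BMDM for saringosterol and 1 for GW, near the background of 1780 and 1738 of all 15416 genes. Gclc with GW in microglia, Txnrd1 between vehicle-treated microglia and BMDM, and the GW difference of Slc7a11 between them were also not called with the block. The cause of these shifts was not tested. Leaving out 1 library at a time, the counts ran between 2 and 4 (saringosterol) and 8 and 9 (GW) in microglia, 1 and 5 (saringosterol), 2 and 8 (GW) and 0 and 3 (saringosterol against GW) in BMDM, 0 and 4 for the saringosterol response of microglia against BMDM, and 3 and 5 for that of BMDM against hepatocytes. No called value changed sign in any run. Of 680 values under other settings 662 kept their side of the threshold, and of 1680 without 1 library 1621. Over all genes, calls moved by more than 1.5 times for saringosterol in hepatocytes (307 to 554 with DESeq2, 491 unfiltered, 782 with the block), for GW there (178 to 286 with the block) and for saringosterol against GW there (316 to 544 with the block). DESeq2 also moved them for the saringosterol response of microglia against BMDM (382 to 1067; 700 unfiltered), microglia against hepatocytes (224 to 555) and BMDM against hepatocytes (1918 to 2911), and the GW response of BMDM against hepatocytes (899 to 1518). With DESeq2's size factors, 28.1% of the calls for the saringosterol response of microglia against BMDM were higher, against 38.2%. Leaving out 1 library moved calls over all genes by more than 1.5 times as well. For saringosterol in hepatocytes they were 203 and 93 without saringosterol replicates 1 and 2, and 140, 803 and 86 without vehicle replicates 1, 2 and 3, and for saringosterol against GW there 205 and 188 without GW replicates 1 and 3. In BMDM they were 1008 and 846 for saringosterol without vehicle replicates 1 and 2. For GW in BMDM they were 911 and 909 without the same vehicle libraries, 965 and 896 without GW replicates 2 and 3, and 2500 without saringosterol replicate 3. For saringosterol against GW in BMDM they were 887 without GW replicate 3. The saringosterol responses ran between 161 and 681 calls for microglia against BMDM, 131 and 269 for microglia against hepatocytes and 1220 and 2381 for BMDM against hepatocytes. Depth limits Nqo1 most, the gene with the lowest CPM of the 10 (5.82 to 25.2).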
